A study of Homo sapiens with 12 samples.

Results

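The annexins are a family of calcium-dependent, phospholipid-binding proteins, and 10 of their genes are described here: ANXA1, ANXA2, ANXA3, ANXA4, ANXA5, ANXA6, ANXA7, ANXA8, ANXA10 and ANXA11. The genes were listed with earlier results of these data known. Members were all probe sets that the platform annotation gives to 1 of these genes, with no filter on their measured values. That gave 14 probe sets of 9 genes among 22277 on the array. ANXA8 had no probe set of its own, since the probe set that lists it, 203074_at, lists ANXA8L1 too. RNA precipitated with eIF4E was measured in MDA-MB-231, an established human breast cancer line that lacks hormone receptors. The 4 groups of 3 arrays were eIF4E antibody after 2 Gy of X-rays, eIF4E antibody without irradiation, control IgG after 2 Gy and control IgG without irradiation. Irradiated cells carry a 6 h time in their titles, all cells were grown in DMEM with 10% serum, and all precipitates came from the same commercial kit. The series describes its replicates as biological, and everything rests on 1 cell line.

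Annexins share a core of repeated domains that binds membranes once calcium is present, and each has its own amino-terminal tail through which it meets partners such as S100 and penta-EF-hand proteins. They are known for membrane repair, vesicle traffic and the organisation of membrane and cytoskeleton, and ANXA1 and ANXA2 are abundant in many epithelial tumour cells. eIF4E binds the cap at the 5' end of messenger RNA and recruits it for translation, so an eIF4E precipitate is enriched for capped messages in contact with the factor. Control IgG collects whatever RNA sticks without that contact. The difference between both precipitates is therefore a relative measure within the RNA of each array, not a count of molecules and not a level of protein.

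The start regions of the annexins that passed the antibody test by at least 1 probe set and have 1 start in the RefSeq table of GRCh38.p14 are shown first. Each line holds the 60 bases before the transcript start, 5' to 3' on the gene's strand, and capitals mark TATAAA, searched on both strands (TTTATA is its reverse complement).
ANXA1, chr9:73151805-73151864, plus strand: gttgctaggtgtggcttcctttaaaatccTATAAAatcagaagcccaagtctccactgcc
ANXA2, chr15:60397987-60398046, minus strand: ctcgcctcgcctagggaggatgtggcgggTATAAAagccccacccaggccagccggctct
ANXA3, chr4:78551710-78551769, plus strand: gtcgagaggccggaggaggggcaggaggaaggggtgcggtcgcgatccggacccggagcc
ANXA7, chr10:73414059-73414118, minus strand: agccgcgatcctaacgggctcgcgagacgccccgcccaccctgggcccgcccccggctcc
The letters TATAAA began 31 bases before the start in both ANXA1 and ANXA2. They were in neither the ANXA3 nor the ANXA7 window. Of 35116 such windows in the table, 3.75% held them on either strand. GC content was 45% for ANXA1, 66.7% for ANXA2, 75% for ANXA3 and 80% for ANXA7, against a median of 61.7% over all windows. These letters describe the DNA upstream of the messages, and no value here measures the promoters.

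Signals are linear MAS5 intensities, scaled by the authors so that the trimmed mean was about 500.2 on every array. Log2 values correlated at 0.977 to 0.988 within eIF4E groups and at 0.955 to 0.971 within IgG groups, and 0 pairs of arrays were identical. Of the mesenchymal-like markers of the line, VIM read 9157 to 27305, CAV1 10756 to 24192, AXL 4413 to 14632 and CD44 2710 to 13479. MET, at 896 to 3323, and EGFR, at 216 to 1359, were dimmer. Among luminal markers ESR1 was at 60.9 or less, PGR at 27.8 or less, CDH1 at 39.6 or less and ERBB3 at 119 or less. The luminal markers KRT18, at 6088 or more, and GATA3, at 603 or more, were present, and on eIF4E arrays EGFR (216 to 432) was below GATA3 (603 to 822). The arrays of both antibodies also differed in their controls. The Alu probe set read 13482 to 18476 on eIF4E arrays and 36876 to 53246 on IgG arrays. The 3' to 5' ratio of actin was 1.33 to 1.53 on eIF4E arrays and 2.96 to 5.38 on IgG arrays (exact two-sided permutation test, p = 0.00216 for each, the smallest that 6 arrays against 6 allow). The part of these differences in the annexin results was not tested. The arrays numbered 1 stood apart from the others in every group, with a ratio of the spiked controls bioB to bioC of 0.335 to 0.517, against 0.0265 to 0.0572 for numbers 2 and 3. Without them 7 annexin probe sets passed the antibody test below in irradiated cells, 9 in untreated cells and 10 over both, against 5, 9 and 9 with all arrays.

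ANXA1, ANXA3 and ANXA6 were relatively higher in the eIF4E precipitate, ANXA4, ANXA7 and ANXA11 were higher by 1 of 2 probe sets each, ANXA2 was lower, and ANXA5 and ANXA10 did not pass the test. Over untreated and irradiated cells together, 9 of the 14 annexin probe sets passed (limma, Benjamini-Hochberg adjusted p under 0.05 over 11438 probe sets tested). Of these, 6 were higher with eIF4E (ANXA1, ANXA3, ANXA6 and 1 probe set each of ANXA4, ANXA7 and ANXA11) and 3 were lower, all of ANXA2. Over all probe sets tested 66.4% passed, 29.8% of them as higher and 36.6% as lower out of the same total, so the share of annexins that passed was close to the background. The median log2 difference, eIF4E minus IgG, was 0.29 over the annexin probe sets and -0.07 over all probe sets tested. The 6 eIF4E arrays did not overlap the 6 IgG arrays in 5 annexin probe sets, 2 higher and 3 lower, where 45.7% of all probe sets tested did not overlap, 20.6% as higher and 25.1% as lower. All 14 annexin probe sets were bright enough for the test.

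**Figure D1:**
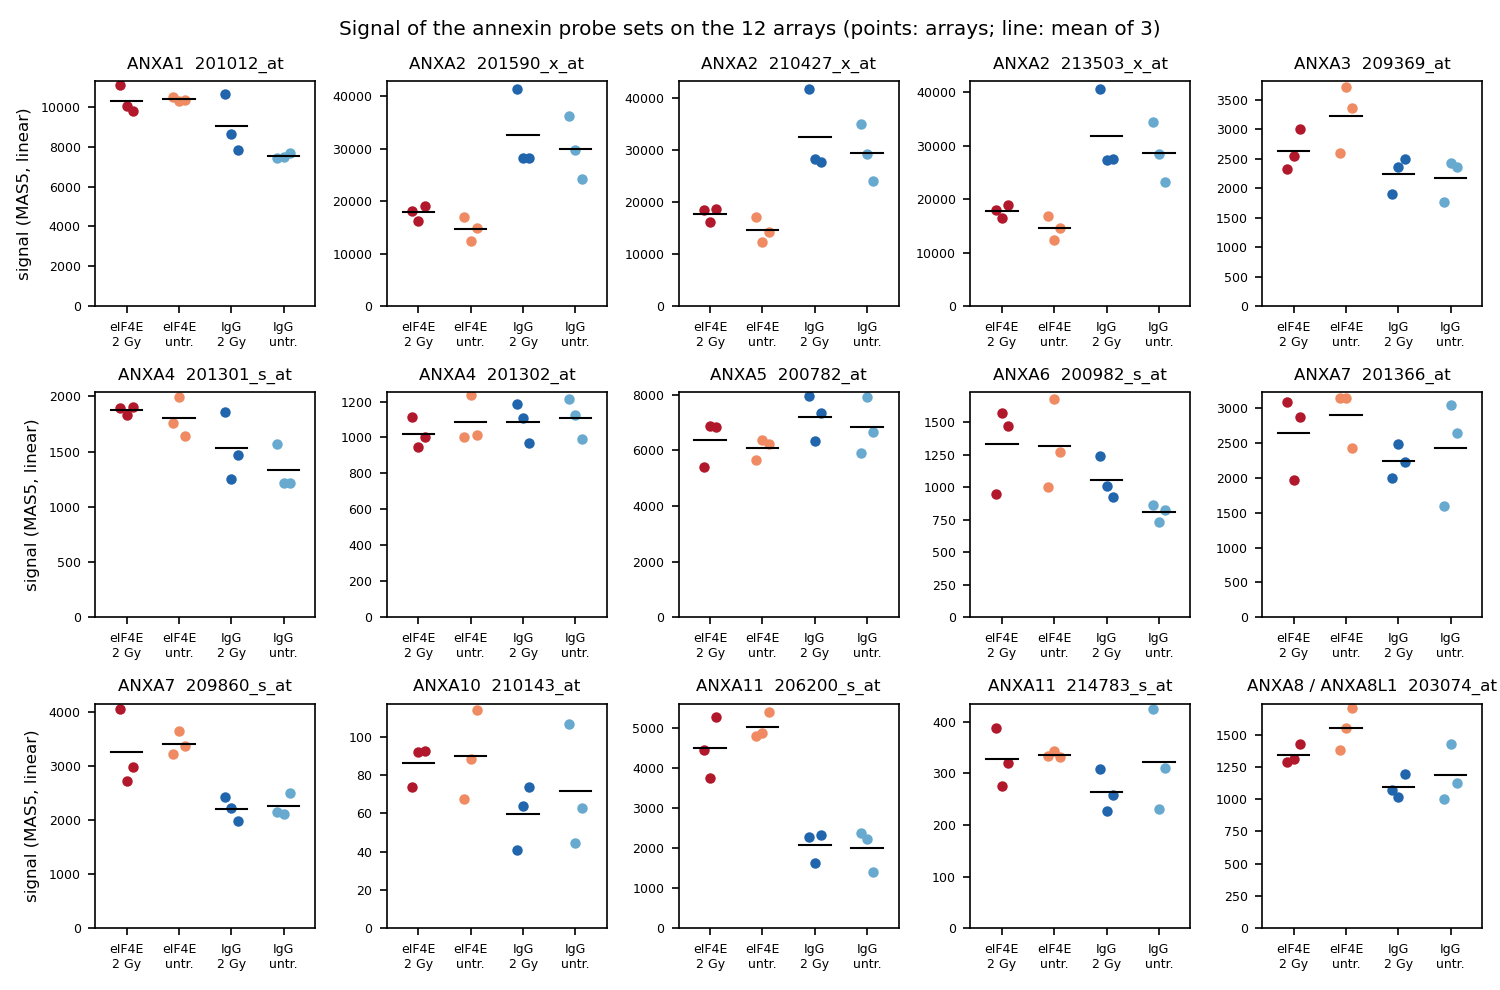
Signal on the y axis (linear MAS5 intensity, from 0) for each annexin probe set and for the probe set shared by ANXA8 and ANXA8L1, with the groups on the x axis in the order eIF4E 2 Gy, eIF4E untreated, IgG 2 Gy and IgG untreated. Points are arrays and lines are means of 3; the eIF4E points of ANXA11 206200_s_at (3766 to 5418) lie above all its IgG points (1400 to 2374), and those of ANXA2 lie below.

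The plot of signals by array shows these patterns probe set by probe set. ANXA11, which tethers RNA granules to lysosomes and binds the calcium sensor PDCD6, stood furthest above IgG. Its probe set 206200_s_at read 4463, 3766 and 5290 with eIF4E after 2 Gy and 4817, 4889 and 5418 with eIF4E in untreated cells. It read 2290, 1621 and 2331 with IgG after 2 Gy and 2374, 2224 and 1400 with IgG in untreated cells. Every eIF4E array was above every IgG array, and the lowest eIF4E array exceeded the highest IgG array by more than the whole range of the IgG arrays. The log2 difference was 1.24 ± 0.14 (SE, n = 6 arrays each), 2.36-fold, with a limma adjusted p of 6.69e-07. The other ANXA11 probe set, 214783_s_at, was dim and gave 276 to 388 with eIF4E and 227 to 425 with IgG, which overlap. Its log2 difference of 0.20 ± 0.15 did not pass (limma adjusted p = 0.254).

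ANXA7, the annexin with a long tail that also binds PDCD6 and sorcin, was higher by 1 of its probe sets. Probe set 209860_s_at read 4056, 2728 and 2978 with eIF4E after 2 Gy and 3226, 3642 and 3375 with eIF4E in untreated cells, against 2438, 2219 and 1987 with IgG after 2 Gy and 2161, 2118 and 2501 with IgG in untreated cells. No eIF4E array fell to the level of an IgG array. The log2 difference was 0.56 ± 0.11 (limma adjusted p = 0.000214). The other ANXA7 probe set, 201366_at, gave 0.26 ± 0.15 and did not pass (limma adjusted p = 0.149). Its arrays overlapped, from 1970 to 3145 with eIF4E and from 1599 to 3038 with IgG, and without replicate 1 of every group its difference was -0.01.

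ANXA1, an inhibitor of inflammatory signalling that acts through formyl peptide receptors, was slightly higher with eIF4E. Its only probe set, 201012_at, read 11076, 10035 and 9782 with eIF4E after 2 Gy and 10493, 10305 and 10344 with eIF4E in untreated cells. It read 10651, 8649 and 7825 with IgG after 2 Gy and 7415, 7456 and 7672 with IgG in untreated cells. The arrays separated fully in untreated cells, and in irradiated cells IgG replicate 1 reached the eIF4E range. The log2 difference was 0.33 ± 0.09, 1.26-fold (limma adjusted p = 0.00370).

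ANXA3, ANXA4 and ANXA6 showed differences of the same order. ANXA3, linked to growth of several carcinomas, read 2328, 2551 and 2999 with eIF4E after 2 Gy and 2601, 3711 and 3363 with eIF4E in untreated cells, against 1898, 2357 and 2491 with IgG after 2 Gy and 1761, 2427 and 2357 with IgG in untreated cells. Its log2 difference was 0.39 ± 0.12 (limma adjusted p = 0.00944), and its arrays separated in untreated cells and overlapped in irradiated cells. ANXA6, the annexin with a doubled core that acts in membrane repair and cholesterol traffic, read 948, 1569 and 1468 with eIF4E after 2 Gy and 1005, 1680 and 1271 with eIF4E in untreated cells. With IgG it read 1241, 1011 and 922 after 2 Gy and 865, 730 and 821 in untreated cells. Replicate 1 was the lowest of each eIF4E group and the highest of each IgG group for ANXA6, and the log2 difference was 0.49 ± 0.15 (limma adjusted p = 0.00752). Without replicate 1 of every group the ANXA6 difference in irradiated cells was 0.64 and passed (limma adjusted p = 0.00335), whereas with all arrays it was 0.30 and did not (limma adjusted p = 0.232).

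ANXA4, which binds secretory and plasma membranes in epithelia, gave a different answer by each of its probe sets. Probe set 201301_s_at read 1894, 1831 and 1907 with eIF4E after 2 Gy and 1761, 1995 and 1644 with eIF4E in untreated cells, against 1860, 1254 and 1469 with IgG after 2 Gy and 1565, 1219 and 1213 with IgG in untreated cells. Its log2 difference was 0.37 ± 0.11 (limma adjusted p = 0.00760), with overlap through IgG replicate 1 after 2 Gy. Probe set 201302_at spanned 948 to 1236 with eIF4E and 969 to 1211 with IgG, a difference of -0.06 ± 0.10 (limma adjusted p = 0.624). When the probe sets of each gene were averaged, ANXA4 no longer passed, at 0.16 (limma adjusted p = 0.169).

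**Figure D2:**
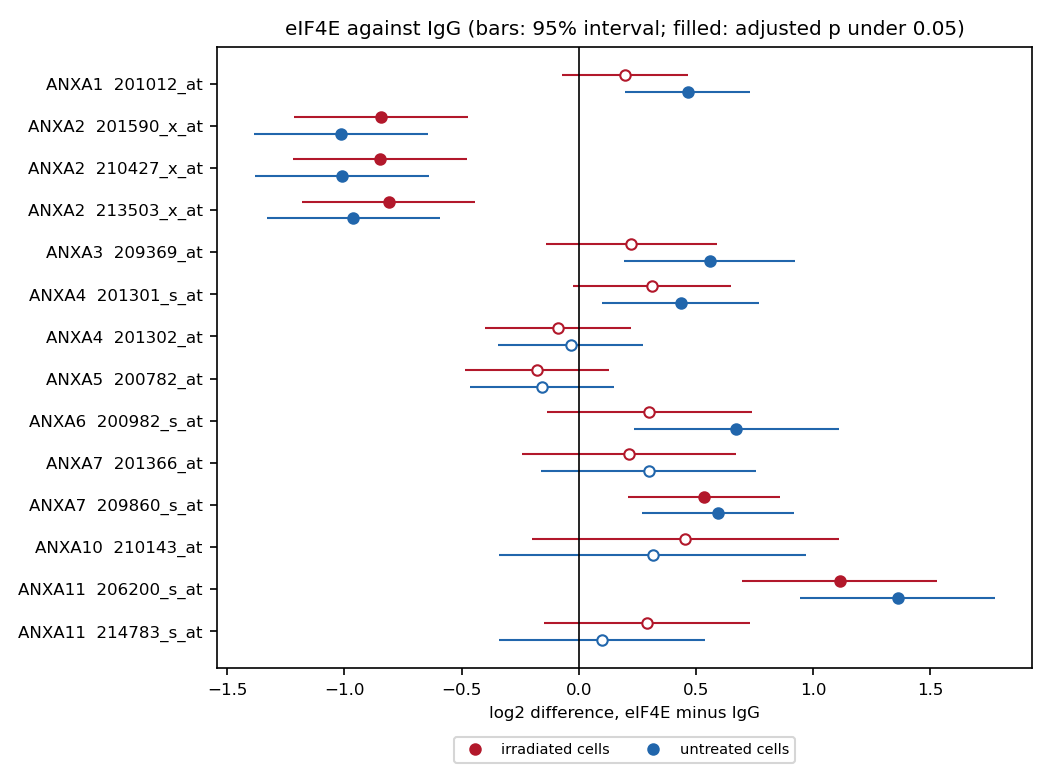
Log2 difference, eIF4E minus IgG, on the x axis for each annexin probe set on the y axis, in irradiated cells (red, upper) and untreated cells (blue, lower). Bars are 95% intervals and filled points passed the limma test; ANXA2 sits at -0.81 to -1.01, and ANXA11 206200_s_at at 1.11 in irradiated and 1.36 in untreated cells.

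ANXA2, which forms a heterotetramer with S100A10 and binds plasminogen, actin and RNA, was the only annexin that passed as lower with eIF4E on the deposited scale. Probe set 201590_x_at read 18200, 16317 and 19170 with eIF4E after 2 Gy and 17004, 12409 and 14858 with eIF4E in untreated cells. It read 41317, 28289 and 28186 with IgG after 2 Gy and 36117, 29691 and 24129 with IgG in untreated cells. Every eIF4E array was below every IgG array. The log2 difference was -0.93 ± 0.12, or 0.525 of the IgG level (limma adjusted p = 4.71e-06). The other ANXA2 probe sets, 210427_x_at and 213503_x_at, differed from it by at most 4.83% on any array and gave -0.93 and -0.89, so the 3 are close to a repeat of 1 measurement. Their _x_at suffix marks probes that can match other transcripts.

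The size of the ANXA2 difference depended on the scaling more than that of the other annexins. With quantile normalization it was -0.25, -0.27 and -0.22 for 201590_x_at, 210427_x_at and 213503_x_at (limma adjusted p = 0.00280, 0.00148 and 0.00778), and it no longer passed in irradiated cells taken by themselves, at -0.19, -0.20 and -0.16 (limma adjusted p = 0.0963, 0.0717 and 0.167). ANXA2 was among the brightest probe sets, with 26 to 115 others above it on any array. Of the 97 other probe sets among the 100 with the highest mean signal, 72 were lower with eIF4E and 4 were higher by the same limma test, with a median log2 difference of -0.58 as deposited and -0.03 after quantile normalization. That set was chosen after the data were seen. Whether signals this bright were saturated was not tested. Rescaled to the hybridization controls, which were 6.08-fold dimmer on eIF4E arrays by geometric mean, ANXA2 was higher with eIF4E, as were all 14 annexin probe sets and 11079 of the 11438 tested.

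ANXA2 has processed pseudogenes of nearly the same sequence, and none of their probe sets passed as lower with eIF4E. ANXA2P2 (208816_x_at) read 9666, 7682 and 8089 with eIF4E after 2 Gy and 9043, 8402 and 8161 with eIF4E in untreated cells. With IgG it read 6739, 7731 and 4686 after 2 Gy and 4785, 4817 and 4405 in untreated cells. Only IgG replicate 2 after 2 Gy reached the eIF4E range, and the log2 difference was 0.65 ± 0.11 (limma adjusted p = 8.59e-05). ANXA2P1 (210876_at), at 0.29, and ANXA2P3 (211241_at), at -0.19, did not pass (limma adjusted p = 0.222 and 0.248). Both were dim beside ANXA2, at 74.9 to 168 and 176 to 285. In irradiated cells the eIF4E arrays of ANXA2P3 (185 to 219) lay below its IgG arrays (223 to 283), but its difference of -0.31 did not pass (limma adjusted p = 0.216). A probe set listed for both SNU13, a small ribonucleoprotein subunit, and ANXA2 (201077_s_at) was higher with eIF4E by 1.28 ± 0.10 (limma adjusted p = 6.78e-09 in a fit that also took probe sets with several genes or none). It cannot be assigned to either gene. Probes for ANXA2 and for its pseudogenes may each bind the RNA of the other, and their part in these values was not tested.

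Whether probe sets moved apart was tested on the ratio within each array, for 6 pairs chosen after the data were seen (exact two-sided permutation test, 6 arrays against 6, adjusted over the 6 pairs). These ratios show unequal change and not relative amounts. Because of that choice their p-values describe the pairs and are no independent support, and ratios of other pairs were not examined. Within a gene, the probe set with the higher log2 difference was put on top, so the sign of those ratios was set by the data. The ratio of ANXA2 to ANXA2P2 was 1.48 to 2.37 on eIF4E arrays and 3.66 to 7.55 on IgG arrays, a difference of -1.58 on the log2 scale (exact p = 0.00216, adjusted 0.00260). The ratio of the ANXA11 probe sets, 206200_s_at over 214783_s_at, was 11.5 to 16.5 with eIF4E and 4.52 to 9.65 with IgG, a log2 difference of 1.04 (exact adjusted p = 0.00260). For ANXA4 the ratio of 201301_s_at to 201302_at was 1.61 to 1.93 with eIF4E and 1.09 to 1.57 with IgG, a log2 difference of 0.44 (exact adjusted p = 0.00260). For ANXA7 the ratio of 209860_s_at to 201366_at was 1.03 to 1.39 with eIF4E and 0.697 to 1.35 with IgG, and its difference of 0.31 did not pass (exact p = 0.0844). As a description, probe sets of a single gene gave unequal antibody differences in ANXA4 and ANXA11 on these arrays. The place of each probe set within its message was not analysed here.

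**Figure D3:**
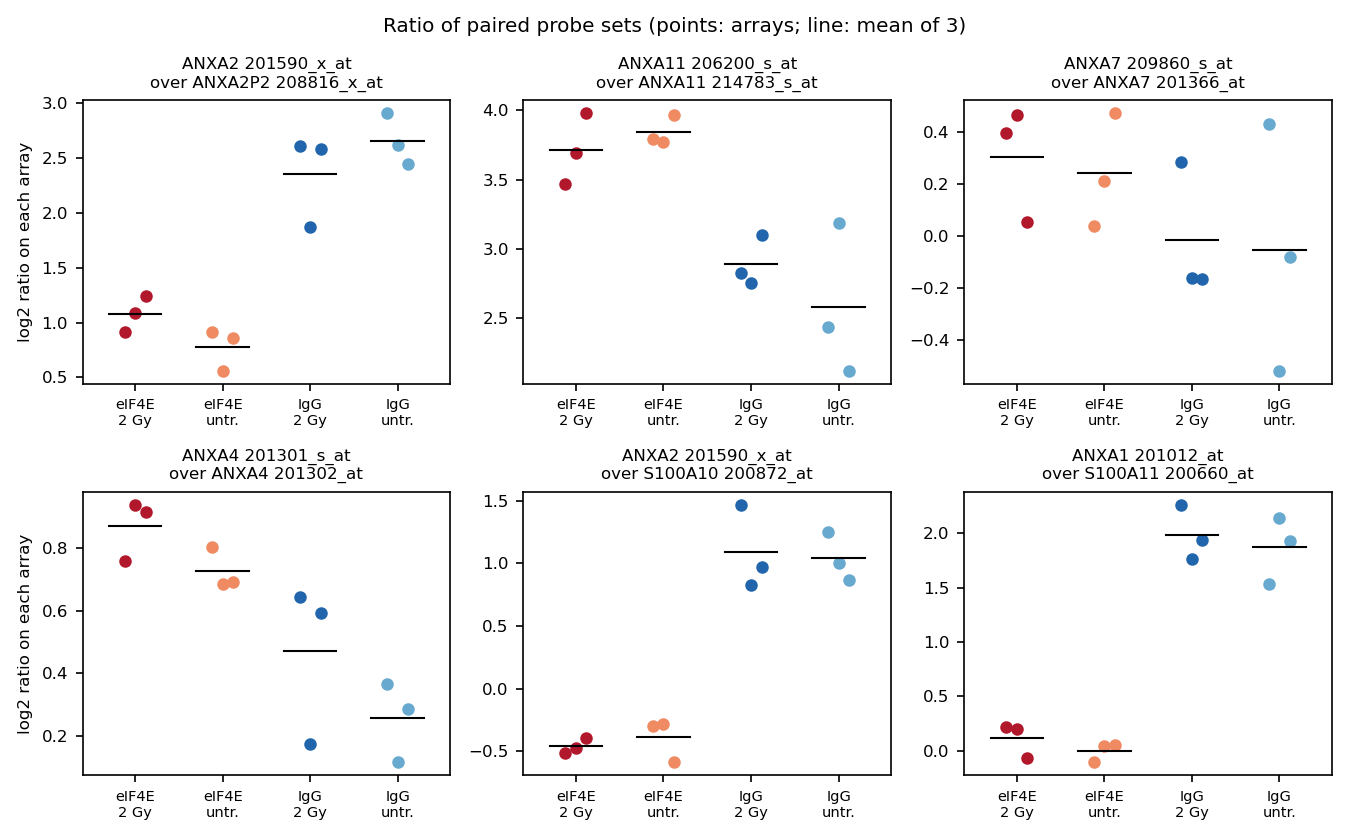
Log2 ratio of paired probe sets on each array (y axis) in the 4 groups (x axis, order eIF4E 2 Gy, eIF4E untreated, IgG 2 Gy, IgG untreated), with points for arrays and lines for means of 3; each panel has its own y range. In every pair but the ANXA7 one, the eIF4E and IgG arrays do not overlap, for example 1.48 to 2.37 and 3.66 to 7.55 as linear ratios of ANXA2 to ANXA2P2. Ratios of other pairs were not examined, and 45.7% of single probe sets tested did not overlap either.

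ANXA5, the phosphatidylserine binder used to stain dying cells, did not pass the test. It read 5413, 6873 and 6851 with eIF4E after 2 Gy and 5663, 6378 and 6212 with eIF4E in untreated cells, against 7954, 6344 and 7335 with IgG after 2 Gy and 5910, 7912 and 6663 with IgG in untreated cells. The groups overlapped, and the log2 difference was -0.17 ± 0.10 with a 95% interval of -0.39 to 0.05 (limma adjusted p = 0.160). A difference between -0.39 and 0.05 is thus what these arrays allow for ANXA5 on the deposited scale. With quantile normalization it was -0.24 and passed (limma adjusted p = 0.0416).

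ANXA10, which is largely restricted to stomach and bladder epithelium, was dim at 67.6 to 114 with eIF4E and 40.9 to 107 with IgG. Markers of leukocytes, liver, neurons and muscle had a median of at most 30.9 on any array, but single markers reached the range of ANXA10, among them CD14 at 38.1 to 128 and APOA1 at up to 77.5. Their part in the ANXA10 signal was not tested. The ANXA10 difference of 0.39 ± 0.22 did not pass (limma adjusted p = 0.133), and its interval, -0.08 to 0.85, was the widest of the annexins. It passed without replicate 1 of every group, at 0.55 (limma adjusted p = 0.0472). The probe set shared by ANXA8 and ANXA8L1 (203074_at), near-identical copies, spanned 1291 to 1706 with eIF4E and 1005 to 1429 with IgG. Its log2 difference was 0.34 ± 0.11 (limma adjusted p = 0.0104 in the fit with such probe sets), and the signal cannot be divided between the copies.

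Taken by treatment, 5 annexin probe sets passed in irradiated cells and 9 in untreated cells, where 54.6% and 54.2% of all probe sets tested passed. They were 2 higher and 3 lower in irradiated cells, against a background of 24.4% and 30.3%, and 6 higher and 3 lower in untreated cells, against 24.4% and 29.8%. In irradiated cells these were ANXA7 209860_s_at, ANXA11 206200_s_at and the ANXA2 probe sets. ANXA1, ANXA3, ANXA6 and ANXA4 201301_s_at passed in untreated cells only, at 0.20, 0.22, 0.30 and 0.31 in irradiated cells and 0.47, 0.56, 0.67 and 0.44 in untreated cells on the log2 scale. The difference between irradiated and untreated cells was tested itself and passed for 0 of 14 annexin probe sets and 0% of all (smallest unadjusted p of an annexin in limma = 0.154, with 403 of 11438 under 0.05). Some untreated calls were lost when 1 array was left out, which also leaves fewer arrays for the test. ANXA4 201301_s_at was not called in untreated cells without eIF4E replicate 1 or 2, or without IgG replicate 2 or 3 (limma adjusted p = 0.0576 to 0.116). ANXA3 was not called without eIF4E replicate 2 or IgG replicate 1 (limma adjusted p = 0.0629 and 0.0616), and ANXA6 not without eIF4E replicate 2 (limma adjusted p = 0.0767). In irradiated cells ANXA7 209860_s_at was not called without eIF4E replicate 1 (limma adjusted p = 0.0512). Without IgG replicate 1 of these cells ANXA1 was called at 0.32 and ANXA4 201301_s_at at 0.46 (limma adjusted p = 0.0307 and 0.0166), and without eIF4E replicate 1 ANXA6 was called at 0.53 (limma adjusted p = 0.0409).

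No annexin probe set passed the test for irradiation with 2 Gy, 6 h later, in either precipitate. The values given come from the fit without a replicate block. In the eIF4E precipitate 0 of 14 passed, as did 0 of all 11438, a background of 0% (limma, of which 152 had an unadjusted p under 0.05 and 0 were annexins). In the IgG precipitate 0 of 14 passed and again 0 of 11438 (limma, 850 at an unadjusted p under 0.05, 0 annexins). With array quality weights 9 probe sets passed in the eIF4E precipitate, and no annexin was among them. With the replicate block 0 of 14 passed as well. By replicate number, ANXA2 201590_x_at had signals of 18200, 16317 and 19170 in irradiated cells, against 17004, 12409 and 14858 in untreated cells with eIF4E. ANXA3 had 2328, 2551 and 2999 in irradiated cells, against 2601, 3711 and 3363 in untreated cells. ANXA11 206200_s_at had 4463, 3766 and 5290 in irradiated cells, against 4817, 4889 and 5418 in untreated cells. The irradiated array was thus above its same-numbered untreated array each time for ANXA2, and below it each time for ANXA3 and ANXA11 206200_s_at. The groups overlapped, and none of these differences passed with or without the block. How many of all probe sets kept their direction in this way was not counted, and the labels name no pairing.

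Estimated irradiation differences of the annexins were small. They ran from -0.29 for ANXA3 to 0.30 for ANXA2 210427_x_at in the eIF4E precipitate, and from -0.24 for ANXA11 214783_s_at to 0.38 for ANXA6 in the IgG precipitate. The 95% intervals of all 14 lay between -0.69 and 0.67 with eIF4E and between -0.83 and 0.82 with IgG. In the IgG precipitate ANXA1 and ANXA6 were the probe sets whose irradiated arrays all lay above the untreated ones, 2 of 14, where 4.54% of all probe sets did the same. Their differences of 0.25 ± 0.13 and 0.38 ± 0.21 did not pass (limma adjusted p = 0.673 and 0.687). In the eIF4E precipitate no annexin separated, where 9.50% of all probe sets separated in either direction.

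**Figure D4:**
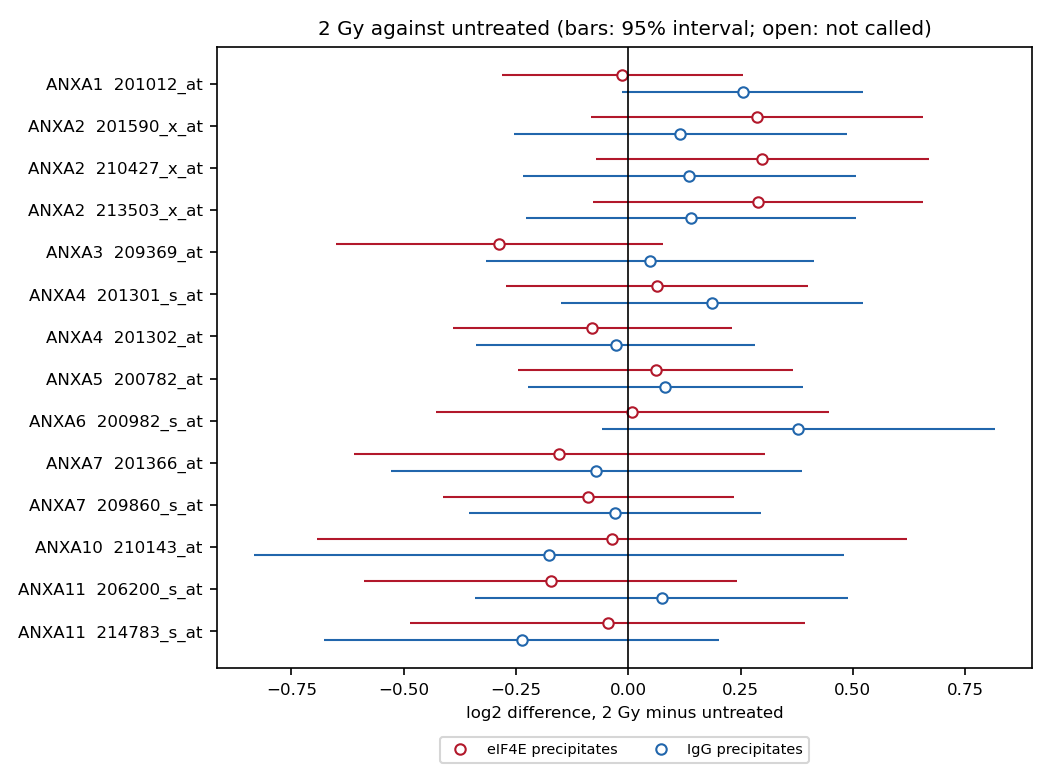
Log2 difference, 2 Gy minus untreated, on the x axis for each annexin probe set on the y axis, in eIF4E precipitates (red, upper) and IgG precipitates (blue, lower). Bars are 95% intervals and cross 0 for all 14 probe sets in both precipitates; open points mark that none passed the limma test.

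A list of annexin partners and related genes split into both directions. It includes calpain genes such as CAPNS1 and penta-EF-hand genes such as PEF1, and whether each product binds an annexin was not tested. Of 28 listed genes, 21 were tested, of which 8 were higher with eIF4E, 9 were lower and 4 did not pass. Among all probe sets tested, 29.8% were higher and 36.6% lower. The median log2 difference was 0.10, against -0.07 over all probe sets tested. Those higher included CAPNS1, the small calpain subunit, at 2.37 ± 0.13, S100A11, the partner of ANXA1, at 2.20 ± 0.11, and PDCD6, the calcium sensor that binds ANXA7 and ANXA11, at 1.49 ± 0.10 (limma adjusted p = 4.23e-10, 2.25e-10 and 2.18e-09). Those lower included AHNAK, a giant scaffold bound by ANXA2 and S100A10, at -1.73 ± 0.13, HNRNPA2B1, an RNA-binding protein, at -1.22 ± 0.09, and TGM2, a transglutaminase, at -1.08 ± 0.16 (limma adjusted p = 7.67e-09, 3.53e-09 and 1.25e-05). S100A6, which binds several annexins, was lower at -0.75 ± 0.13 (limma adjusted p = 5.86e-05), but was higher after quantile normalization, at 0.17 (limma adjusted p = 0.0340).

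S100A10 and S100A11 were followed array by array beside the annexin each binds. S100A10 (200872_at) read 25992, 22684 and 25127 with eIF4E after 2 Gy and 20874, 15052 and 22323 with eIF4E in untreated cells, against 14910, 15900 and 14376 with IgG after 2 Gy and 15141, 14834 and 13220 with IgG in untreated cells. Replicate 2 of the untreated eIF4E arrays lay inside the IgG range, and the log2 difference was 0.56 ± 0.10 (limma adjusted p = 0.000112). The ANXA2 to S100A10 ratio was 0.666 to 0.824 on eIF4E arrays and 1.78 to 2.77 on IgG arrays. The log2 difference was -1.49 (exact adjusted p = 0.00260). On the deposited scale ANXA2 was lower and S100A10 higher in the limma fit, and the pair was chosen after the data were seen. The ratio thus describes a known difference and is no further support for it. The part of saturation or of pseudogene RNA in the ANXA2 signal was not tested. The ratio of ANXA1 to S100A11 was 0.931 to 1.16 with eIF4E and 2.91 to 4.83 with IgG, a log2 difference of -1.87 (exact adjusted p = 0.00260), both being higher with eIF4E.

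**Figure D5:**
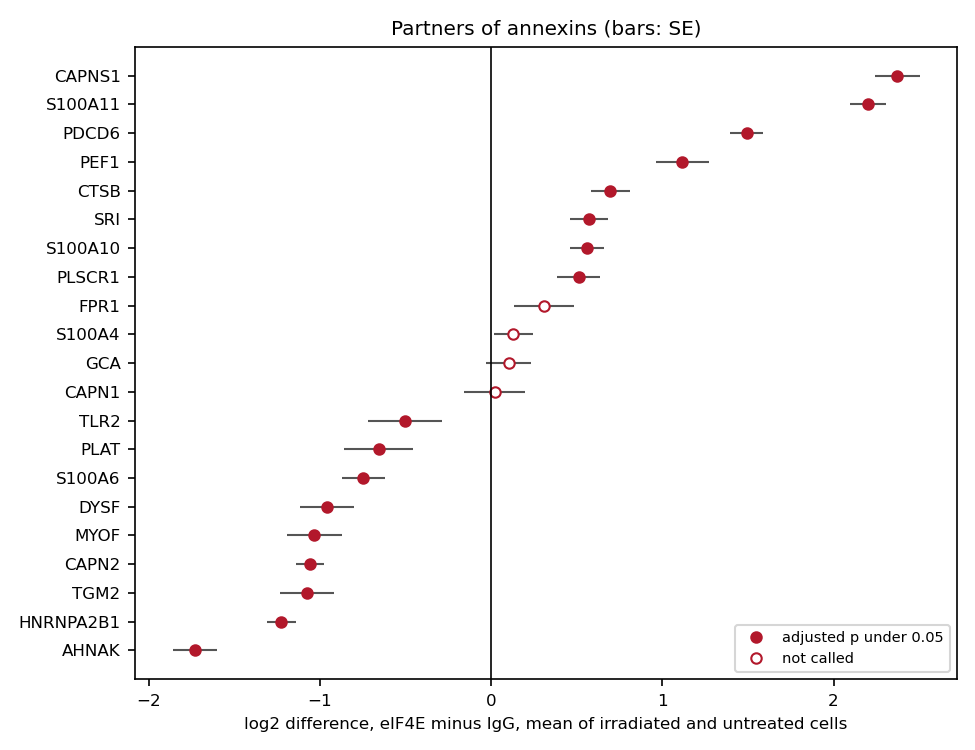
Log2 difference, eIF4E minus IgG, averaged over irradiated and untreated cells (x axis), for the 21 tested genes on the list of annexin partners and related genes (y axis, sorted), with SE bars; filled points passed the limma test. CAPNS1 and S100A11 lie highest, at 2.37 and 2.20, and AHNAK lowest, at -1.73.

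The other large class of calcium-dependent phospholipid binders is that of proteins with C2 domains. Of 30 genes listed, 14 were tested, of which 1 was higher with eIF4E, 9 were lower and 4 did not pass, beside 29.8% higher and 36.6% lower of all probe sets tested. Their median log2 difference was -0.64, against -0.07 over all. The exception was CPNE1, a copine, at 0.84 ± 0.11 (limma adjusted p = 2.90e-06). Among those lower were CPNE3, another copine, at -1.62 ± 0.12, PRKCA, protein kinase C alpha, at -1.52 ± 0.11, and ESYT1, which joins the endoplasmic reticulum to the plasma membrane, at -1.38 ± 0.17 (limma adjusted p = 7.97e-09, 3.53e-09 and 2.69e-06).

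Genes of the ESCRT machinery, which pinches off damaged membrane, and other membrane repair genes split into 10 higher and 9 lower of 24 tested, from 33 listed, beside 29.8% higher and 36.6% lower of all probe sets tested. Their median log2 difference was 0.15, against -0.07 over all. The largest among those higher were the ESCRT subunits VPS28, SNF8 and VPS37B at 1.12, 1.10 and 1.03 (limma adjusted p = 8.83e-07, 3.12e-05 and 3.16e-05). The largest among those lower were EHD2, CAV1 and CAVIN1, which build or hold caveolae, at -0.96, -0.93 and -0.73 (limma adjusted p = 0.000305, 1.08e-07 and 7.39e-05). No gene of the partner, C2 or ESCRT lists passed for irradiation in either precipitate. Of the familiar reference genes, GAPDH was at -0.47 (limma adjusted p = 0.00337) and ACTB at 0.14 (limma adjusted p = 0.447).

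Probe sets of other genes that followed an annexin most closely over the 12 arrays were named by Pearson's r of log2 values, as a description, since all points share the same arrays and group structure. For ANXA2 these were TUBA1C, a tubulin, RPS4X, a ribosomal protein, and LDHA, lactate dehydrogenase (r = 0.993, 0.992 and 0.991), whose own log2 differences were -0.93, -0.97 and -0.96. For ANXA1 they were EXOSC7, an exosome subunit, SMPD2, a sphingomyelinase, and MRPS12, a mitochondrial ribosomal protein (r = 0.93 for each), at 1.03, 1.43 and 1.30. For ANXA5 they were ATP6AP2, an accessory subunit of the proton pump, TLE1, a corepressor, and RBM5, a splicing regulator (r = 0.931, 0.883 and 0.883), at -0.14, -0.48 and -0.20. With group means removed, r in the same order was 0.966, 0.964 and 0.967 for ANXA2. It was 0.951, 0.753 and 0.660 for ANXA1, and 0.911, 0.886 and 0.844 for ANXA5.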

How the data were processed

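The deposited values are MAS5 signals, 1 for each probe set on each array, made by the authors per the submitters' processing notes and given as a linear intensity (no MAS5 version was among the sources used). They were taken without further normalization and are relative within an array. Of 22277 probe sets, 62 were controls, 19064 carried 1 gene symbol, 1043 several and 2108 none, and 19052 symbols were brought up to date through gene identifiers. Of those with several, values are given only for the 2 shared probe sets named in the text. They come from a fit of 13329 probe sets that also took those with several symbols or none.

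The model was fitted in limma 3.58.1 under R 4.3.3 (lmFit, then eBayes with a trend) to log2(signal + 16), with 4 group means over 12 arrays. It took probe sets with 1 symbol and a mean log2 signal at or above the 40th percentile (a signal of 39.5), which kept 11438. The added 16 makes differences of dim probe sets smaller than they are. P-values were adjusted by Benjamini-Hochberg at a threshold of 0.05, and errors are the fit's SE. Single values were compared by exact permutation tests (SciPy 1.17.1). Precision is limited by the number of arrays, 3 a group. In the lists a gene is represented by its brightest probe set, with _x_at ones as a last choice.

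The members, the gene lists and the comparisons were chosen with earlier results of these data known. All probe sets of the listed annexins are named, and so are up to 3 genes at either end of each list among those called with no overlap of arrays, S100A10, S100A11, S100A6, PDCD6, AHNAK, the ANXA2 pseudogenes, GAPDH, ACTB and the 3 closest patterns for ANXA1, ANXA2 and ANXA5. Promoter sequences come from RefSeq, GRCh38.p14, whose table held 9 of the 10 annexins, 6 of them with 1 start. Fitting was tested on simulated data.

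Whether equal replicate numbers pair arrays was checked by correlating their deviations from the group means. Between irradiated and untreated eIF4E arrays the correlation was 0.311 for number 1, 0.181 for number 2 and 0.123 for number 3. The numbers may pair these arrays, but this rests on the data alone, since the labels name no shared culture. Number 1 also correlated at 0.249 between irradiated eIF4E and untreated IgG arrays, and arrays numbered 1 stood apart by their spiked controls. Shared cultures and a shared array batch thus cannot be told apart. The fit whose values are given has no block, and the replicate block was run as an alternative. Every other pair of groups had at least 1 number under 0.1. The settings varied were the pseudocount (1 and 64), the filter (none and the 60th percentile), quantile normalization, median centring and rescaling to hybridization controls. Others were the trend, array weights, a replicate block, and the brightest probe set or the mean of the probe sets of a gene. Fits were also run on only the groups compared, with probe sets of several genes or none, and with single arrays or all arrays numbered 1 left out.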

Additional observations from a re-analysis of the deposited data

How the results depend on the processing

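Over untreated and irradiated cells together, the 9 annexin probe sets called kept their direction and their call in every alternative run on single probe sets but rescaling to hybridization controls, where ANXA2 turned and the others stayed higher. That rescaling called 14 probe sets as higher in untreated cells, in irradiated cells and in their mean, and moved the median of all probe sets tested to 2.53. Under it ANXA2 (201590_x_at, 210427_x_at, 213503_x_at) was at 1.71, 1.71 and 1.75 in irradiated cells, 1.64, 1.64 and 1.69 in untreated cells and 1.68, 1.67 and 1.72 as the mean. ANXA4 201302_at was at 2.47, 2.62 and 2.54 and ANXA5 at 2.38, 2.49 and 2.44 in the same order. Quantile normalization left 2 annexin probe sets called in irradiated cells instead of 5, with S100A6 at 0.17, GAPDH at -0.11 (limma adjusted p = 0.216) and ACTB at 0.56 (limma adjusted p = 0.00196), and it split all probe sets called into 3763 higher and 3759 lower. With 1 value a gene, the brightest probe set gave 3 annexins called in irradiated cells, the number of genes to which the 5 probe sets belong, and the mean of a gene's probe sets gave 2, as ANXA7 was not called (0.38, limma adjusted p = 0.0629). The replicate block left the counts at 5, 9 and 9 for irradiated cells, untreated cells and the mean, at 0 for irradiation, and changed no call of an annexin. Leaving out 1 array gave 5 to 7 in irradiated cells, 6 to 9 in untreated cells, 9 to 10 for the mean and 0 for irradiation. ANXA7 201366_at passed with median centring (0.36), and ANXA4 201301_s_at (0.38) and ANXA6 (0.49) in irradiated cells with array weights, and ANXA10 with array weights (0.50) or without IgG replicate 1 of the untreated cells (0.52). The cause of these changes was not tested. The fit of ANXA10 is limited by its low signal.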
